A study of Mus musculus with 16 samples.

Results

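Rab proteins are small GTPases that mark the membranes of the cell's transport routes. In the GTP-bound state each Rab recruits effectors that move, tether or fuse vesicles. Exchange factors switch a Rab on, and GTPase-activating proteins switch it off. In hepatocytes these routes carry secreted plasma proteins from the endoplasmic reticulum (ER) through the Golgi to the surface, and take up lipoproteins and receptors through endosomes to lysosomes.

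The Rab genes were all symbols of the form Rab, a number and at most 1 letter from a to d. There were 56 of them among the 20826 gene symbols of the table, with 66 RefSeq rows between them. Liver RNA of 16 male C57BL/6J mice was counted by SuperSAGE, which reads a short tag beside an NlaIII site (CATG) of each captured transcript. The HFW group (4 mice) ate the high-fat diet supplemented with 1% WEPAK (an extract of Pacific krill that dissolves in water), and the HF group (4 mice) the high-fat diet with 45% fat alone. The NW group (4 mice) ate the normal diet with 1% WEPAK, and the N group (4 mice) the normal diet with 10% fat alone. Feeding lasted 18 weeks in all groups. The labels give an age of 4 weeks for all mice, which is shorter than the feeding and cannot be the age at which liver was taken. Libraries held 56684 to 149464 tags, so that 1 tag equals 6.70 to 17.7 CPM, the tag count scaled to a common library size.

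Of the 56 Rab genes, 30 had at least 1 tag. Together they held 758 tags, 0.0550% of all tags. Rab14, Rab1b, Rab9 and Rab5c had 100 or more tags each and are described singly. They held 506 tags, 66.8% of the Rab total. The other 26 genes with a tag held 252 tags and are described as a pool, and 26 genes had none. A total of 0 tags over all libraries allows a level of up to 2.18 CPM, for counting error only, where the gene yields a tag. For 6 of these genes (Rab13, Rab2b, Rab39, Rab39b, Rab3b and Rab8b) no full tag was predicted after the last NlaIII site of the annotated transcript. Whether they yield a tag is not known, so no limit on their level is read from a count of 0. Just inside the line of 100 tags was Rab5c with 111 tags, and just outside it was Rab36 with 74.

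**Figure D1:**
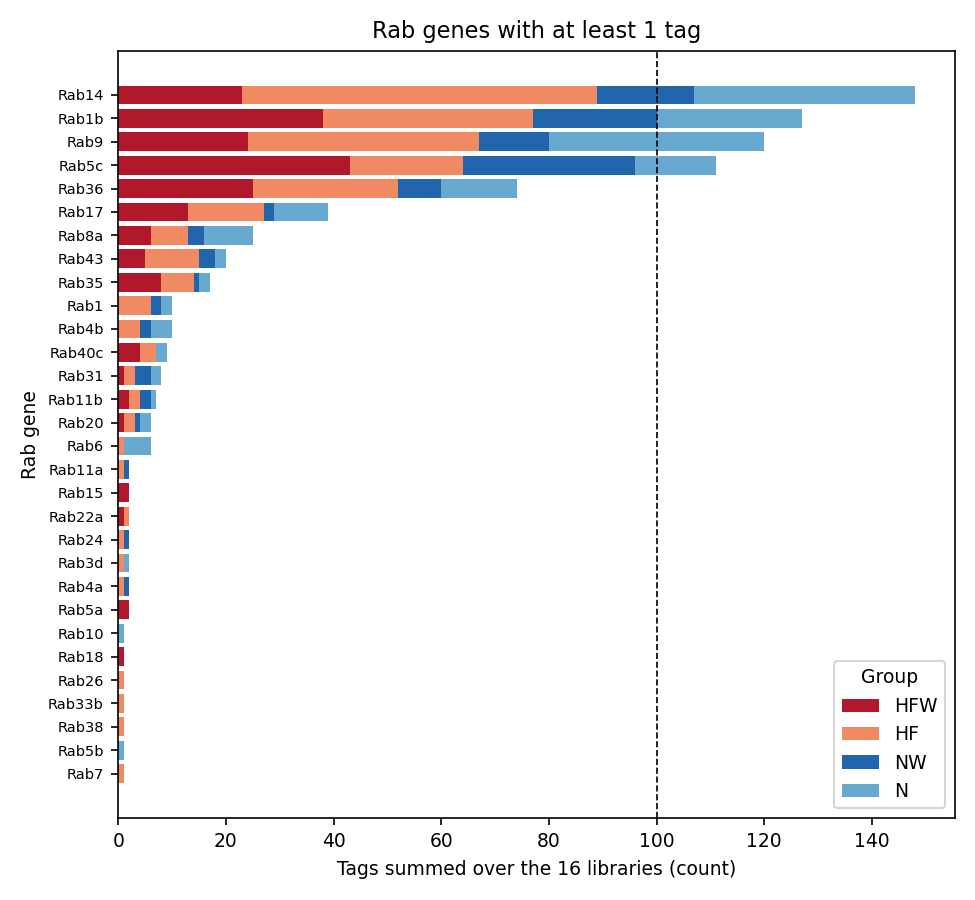
Tags of each Rab gene with at least 1 tag, summed over the 16 libraries (horizontal axis, count), with the share of each group in colour and a dashed line at 100 tags. Rab14, Rab1b, Rab9 and Rab5c pass the line with 148, 127, 120 and 111 tags, Rab36 follows with 74, and most other bars are close to 0.

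What was counted for each gene is a tag and not the whole transcript. The tag beside the NlaIII site nearest the 3′ end was read from the GENCODE M21 (GRCm38) transcripts that match the table's RefSeq identifiers, with a length of 26 bases. The deposited table does not hold tags, so these are the tags predicted for each gene. They are shown for the 4 abundant genes and for 3 well-known Rabs of the same routes that had almost none. Capitals mark the NlaIII site.
Rab5c: CATGgtaaccaaaagaaagaagccct
Rab14: CATGacctgctggtgtgtgtatatat
Rab9: CATGcagatttgggacacagctggcc
Rab1b: CATGtcctttgtgctgtctcttgcca
Rab5a: CATGtgtcagatgatttaatctattt
Rab7: CATGgcttgcttcctggagcacttcc
Rab11a: CATGctctgtatttggactttttttt

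The tags of Rab5c, Rab14 and Rab1b lay in the 3′ UTR, 120, 251 and 230 bases from the transcript's end. Rab9 has 1 NlaIII site in its transcript, so its tag lay 891 bases from the end, inside the coding sequence. None of the 4 tags occurred beside another NlaIII site of any other GENCODE gene.

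A GENCODE transcript was found for 64 of the 66 rows. The last site lay a median of 240.5 bases from the end in the 4 rows with 100 or more tags, 165 bases in the 27 rows with fewer tags and 180.5 bases in the rows with 0 tags. Of the 33 matched rows with 0 tags, 7 had fewer than 26 bases after the last site. A tag that another gene also carries was found for 4 rows, none of them with 0 tags or with 100 or more. Rab17 has RefSeq rows with the same predicted tag, of which 1 held 39 tags and the other 0. Rab43 has rows with 1 predicted tag in common that held 19 tags and 1 tag, and the gene Gm45140 carries that tag too, so the Rab43 count is uncertain.

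The tags of the Rab5, Rab1 and Rab9 subfamilies fell mostly on 1 member each. Rab5c, which works at early endosomes, had 111 tags, against 2 for Rab5a and 1 for Rab5b. Rab1b, which acts between the ER and the Golgi, had 127 tags and Rab1 had 10. Rab9, which returns receptors from late endosomes to the Golgi, had 120 tags and Rab9b had 0. Rab8a, a Rab of traffic to the cell surface, had 25 tags, and Rab8b, for which no full tag is predicted, had 0. Rab7 of late endosomes, Rab10 and Rab18, which is found at lipid droplets, had 1 tag each. Rab11a of recycling endosomes had 2 tags, and Rab2a, a Rab of the ER and the Golgi, had 0. A total this low cannot show whether a gene was silent or its tag was poorly recovered.

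Of the 4 abundant genes, 3 passed the expression filter and were tested: Rab5c, Rab14 and Rab9. The filter asked for about 126 CPM in at least 4 libraries. Rab5c reached that level in 3 HFW mice and 2 NW mice and in 0 HF or N mice, so it was tested through the groups in which it was high. Rab14 reached it in 1 HFW mouse, 2 HF mice, 0 NW mice and 2 N mice. HF and N, the groups in which Rab14 was high, thus gave the 4 libraries needed. Rab9 reached the level in 1 HFW mouse, 1 HF mouse, 0 NW mice and 2 N mice, so mostly in mice without WEPAK. Rab1b reached it in 3 libraries and was not tested in the filtered fit. A fit with no filter, which tested all 30 Rab genes with a tag among 10171 genes, is therefore given beside it.

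The first question was what the krill extract changed, on each diet and on average over both. Rab5c was higher with WEPAK and Rab14 was lower. In the mean of both WEPAK contrasts Rab5c rose by a log2 fold change of 1.48 (SE 0.37; adjusted p = 0.00320) and Rab14 fell by 0.97 (SE 0.33; adjusted p = 0.0253), both from edgeR's quasi-likelihood test with Benjamini-Hochberg adjustment. Rab5c lay above the mean of the unsupplemented mice on the same diet in all 8 WEPAK-fed mice, and Rab14 below it in all 8. For Rab14 this was by less than 1 tag in HFW mouse 36, at 139.8 CPM against an HF mean of 140.5 CPM. How many of all genes lie on 1 side in all 8 mice was not counted. Rab9 had a log2 difference of -0.79 (SE 0.35) and did not pass (adjusted p = 0.0867). In this comparison 31.3% of all 1046 genes tested passed, 15.2% higher and 16.1% lower, so a call is common here.

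With no filter Rab5c passed (log2 fold change 1.35, SE 0.36, adjusted p = 0.0121 by edgeR) and Rab14 did not (-1.09, SE 0.34, adjusted p = 0.0506). That is 1 of 30 Rab genes, beside 2.50% of all 10171 genes. At an unadjusted p under 0.05 it was 4 of 30 Rab genes, beside 10.7% of all genes. In the mean WEPAK effect the share of Rab genes that responded was thus close to that of all genes. At the same unadjusted level it was 3 of 30 Rab genes in HFW minus HF, beside 7.20% of all genes. In NW minus N it was 5 of 30, beside 6.53%. The difference between these shares was not tested. Rab14 also failed to pass in the filtered fit without HFW mouse 40 (-0.79, adjusted p = 0.0762), HF mouse 23 (-0.84, adjusted p = 0.0677), NW mouse 11 (-0.81, adjusted p = 0.0656) or N mouse 7 (-0.87, adjusted p = 0.0583), by edgeR. Since Rab14 entered that fit through HF and N, in which it was high, its call there is not support on its own.

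**Figure D2:**
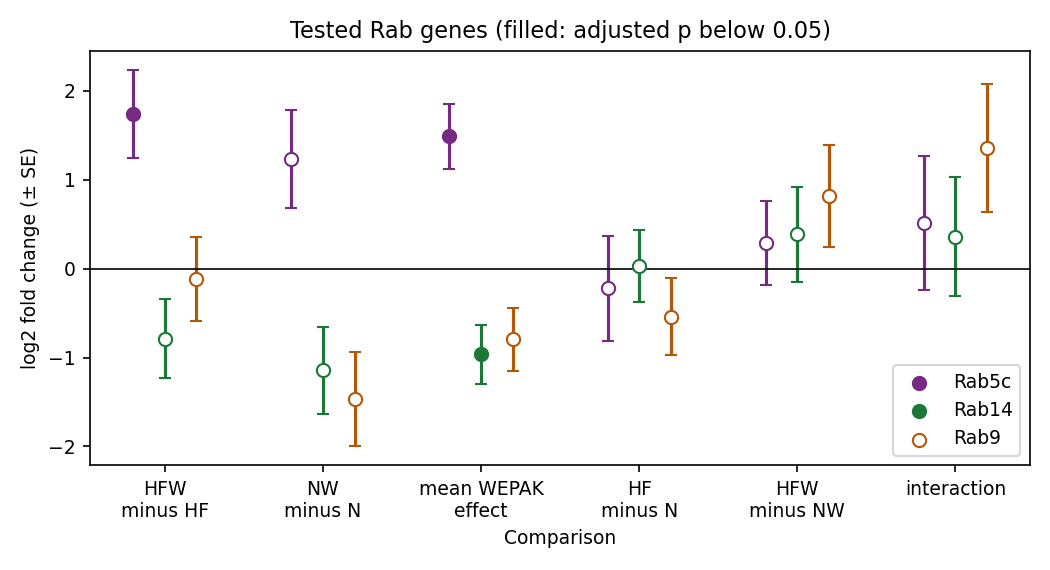
Log2 fold change (vertical axis, bars ± SE) of the 3 tested Rab genes in 6 comparisons, with filled points where the adjusted p was under 0.05. Rab5c is filled in HFW minus HF (1.74) and in the mean WEPAK effect (1.48), Rab14 in the mean WEPAK effect (-0.97), and Rab9 nowhere.

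Rab5c drives the fusion of early endosomes and the uptake of cargo from the surface. On the high-fat diet it had 151, 157, 168 and 113 CPM in HFW mice 34, 36, 38 and 40, against 10.5, 37.5, 49.1 and 67.8 CPM in HF mice 23, 25, 28 and 29. The groups did not overlap: every HFW mouse lay above every HF mouse. How many of all genes separate in this way was not counted, so here and below a lack of overlap is a description only. The mean was 147 ± 23.9 CPM in HFW and 41.3 ± 24.0 CPM in HF (SD, n = 4 each), a log2 difference of 1.74 (SE 0.49) that passed in the filtered fit (adjusted p = 0.0199 by edgeR) and not in the fit with no filter (1.52, adjusted p = 0.125). Since Rab5c entered the filtered fit through the groups in which it was high, its call there is not support on its own. In this comparison 4.21% of all genes were called higher, 5.64% lower and 9.85% in either direction. Rab5c did not pass by edgeR without HFW mouse 38 (1.66, adjusted p = 0.0698), HF mouse 23 (1.47, adjusted p = 0.0988) or HF mouse 25 (1.68, adjusted p = 0.0937). With no filter 1.04% of all genes passed. More Rab5c RNA per cell and more cells that express it cannot be told apart in whole liver.

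On the normal diet Rab5c had 136, 59.5, 112 and 191 CPM in NW mice 11, 12, 15 and 20, against 29.8, 19.1, 106 and 49.8 CPM in N mice 4, 5, 7 and 8. N mouse 7 lay above NW mouse 12, and apart from these the groups were separate. The mean was 125 ± 54.7 CPM in NW and 51.1 ± 38.7 CPM in N (SD, n = 4 each). The log2 difference of 1.23 (SE 0.55) did not pass (adjusted p = 0.140 by edgeR), with 4 of 4 NW mice above the N mean. It did without N mouse 7 (1.96, adjusted p = 0.0438 by edgeR). Of all genes 11.0% passed in this comparison, 3.63% higher and 7.36% lower. With no filter 0.688% did, and 0 of 30 Rab genes.

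Rab14 carries cargo between the Golgi and endosomes. On the normal diet it had 17.0, 93.5, 56.2 and 52.2 CPM in NW mice 11, 12, 15 and 20, against 149, 105, 172 and 116 CPM in N mice 4, 5, 7 and 8. All NW mice lay below all N mice. The mean was 54.7 ± 31.3 CPM in NW and 136 ± 30.7 CPM in N (SD, n = 4 each). The log2 difference of -1.14 (SE 0.49) did not pass (adjusted p = 0.117 by edgeR), and did not in any of the alternatives run for it. On the high-fat diet Rab14 had 69.6, 139.8, 93.1 and 37.6 CPM in HFW mice 34, 36, 38 and 40, against 221, 106, 81.9 and 153 CPM in HF mice 23, 25, 28 and 29. These groups overlapped, with HFW mouse 36 above HF mice 25 and 28. The mean was 85.0 ± 43.0 CPM in HFW and 140.5 ± 61.2 CPM in HF (SD, n = 4 each), and the log2 difference of -0.79 (SE 0.44) did not pass (adjusted p = 0.242 by edgeR).

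Rab9 sorts mannose 6-phosphate receptors back to the Golgi, which keeps the supply of lysosomal enzymes going. On the normal diet it had 51.1, 59.5, 18.7 and 34.8 CPM in NW mice 11, 12, 15 and 20, against 89.3, 191, 132 and 66.5 CPM in N mice 4, 5, 7 and 8. All NW mice lay below all N mice. The mean was 41.0 ± 18.1 CPM in NW and 119.7 ± 54.7 CPM in N (SD, n = 4 each), and the log2 difference of -1.47 (SE 0.53) did not pass (adjusted p = 0.0613 by edgeR). It did without N mouse 8 (-1.57, adjusted p = 0.0438 by edgeR). On the high-fat diet Rab9 had 128, 52.4, 74.5 and 56.4 CPM in HFW mice 34, 36, 38 and 40, against 105, 125, 57.3 and 50.9 CPM in HF mice 23, 25, 28 and 29. These groups overlapped, with means of 77.7 ± 34.6 CPM in HFW and 84.6 ± 36.3 CPM in HF (SD, n = 4 each). The log2 difference there was -0.12 (SE 0.47, adjusted p = 0.904 by edgeR). The difference between the diets in the response of Rab9 was tested as an interaction, with a log2 value of 1.36 (SE 0.72), and did not pass (adjusted p = 0.997 by edgeR).

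In the normal diet comparison 0 of the 3 tested Rab genes passed by edgeR and 0 by limma-voom. The DESeq2 Wald test gave an adjusted p for Rab14 only (0.142), so it cannot speak for Rab5c and Rab9 there. All 3 tested genes had an unadjusted p under 0.05 by edgeR, as had 298 of all 1046 genes. The other counts of 0 also had 0 of the 3 tested Rab genes at that unadjusted level and 0 by the DESeq2 Wald test or limma-voom. These were HF minus N, HFW minus NW and the interaction. With no filter, an unadjusted p under 0.05 by edgeR was found for 0, 4 and 1 of 30 Rab genes in these comparisons. The shares of all 10171 genes were 4.59%, 4.16% and 2.99%.

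Rab1b starts the step that brings vesicles from the ER to the Golgi. It had 92.8, 122, 205 and 113 CPM in HFW mice 34, 36, 38 and 40, against 94.8, 56.3, 131 and 42.4 CPM in HF mice 23, 25, 28 and 29. It had 102, 59.5, 56.2 and 122 CPM in NW mice 11, 12, 15 and 20, against 59.5, 124, 92.7 and 49.8 CPM in N mice 4, 5, 7 and 8. Both pairs of groups overlapped, and HFW mouse 38 was the highest of the 16. In the fit with no filter its log2 difference was 0.44 (SE 0.45, adjusted p = 0.701) in HFW minus HF and -0.09 (SE 0.51, adjusted p = 1.0) in NW minus N, by edgeR.

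**Figure D3:**
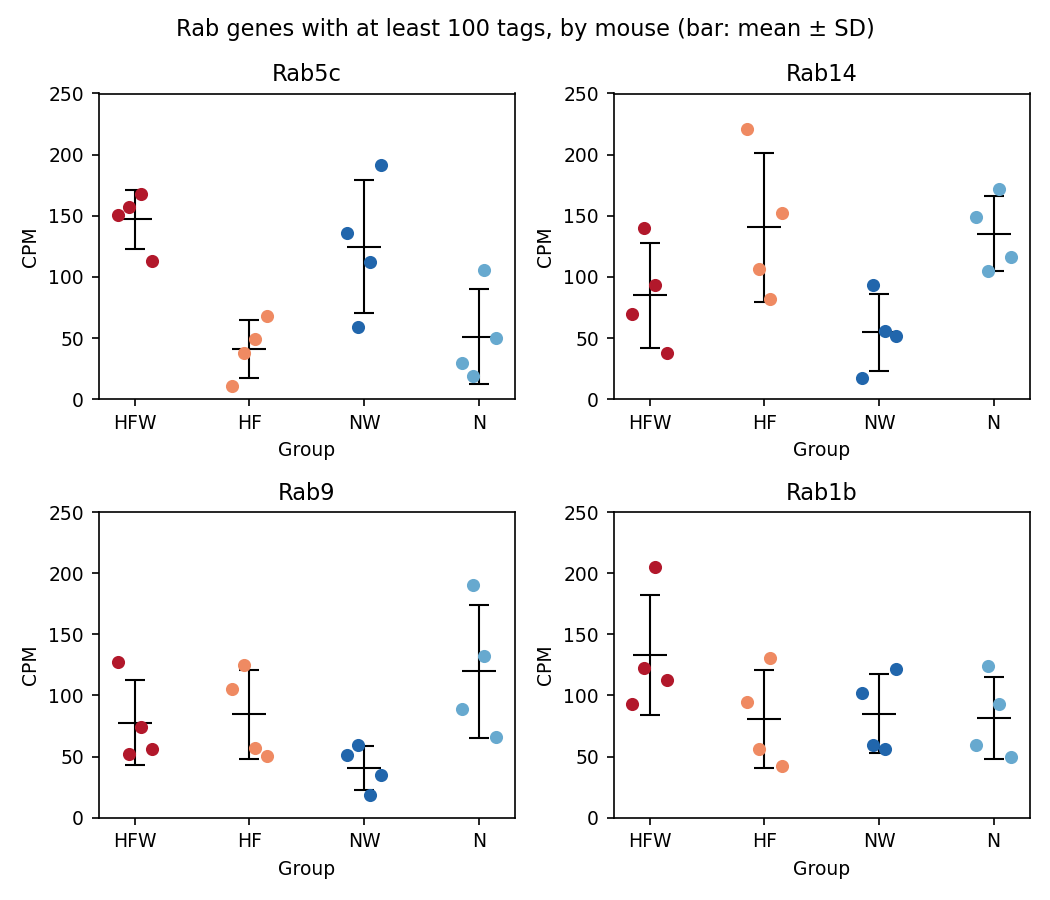
CPM (vertical axis) of Rab5c, Rab14, Rab9 and Rab1b in each mouse, by group (horizontal axis), 1 point per mouse with the mean and SD as bars (n = 4). Rab5c lies at 113 to 168 CPM in HFW mice and 10.5 to 67.8 CPM in HF mice, Rab14 and Rab9 are lower in every NW mouse than in every N mouse, and the groups of Rab1b overlap.

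Rab5c and Rab14 act at different points of the endosomal route, and their tags can be set against each other within a library, where no scaling between libraries enters. This pair was chosen after its values were seen, so the counts are a description without a test. HFW mice 34, 36, 38 and 40 had 13, 9, 9 and 12 Rab5c tags and 6, 8, 5 and 4 Rab14 tags. HF mice 23, 25, 28 and 29 had 1, 6, 6 and 8 Rab5c tags and 21, 17, 10 and 18 Rab14 tags. Rab5c had the more tags in 4 of 4 HFW mice and Rab14 in 4 of 4 HF mice. NW mice 11, 12, 15 and 20 had 8, 7, 6 and 11 Rab5c tags and 1, 11, 3 and 3 Rab14 tags. N mice 4, 5, 7 and 8 had 2, 2, 8 and 3 Rab5c tags and 10, 11, 13 and 7 Rab14 tags. Rab5c had the more in 3 of 4 NW mice and Rab14 in 4 of 4 N mice, NW mouse 12 being the exception. Of the tags of the pair, Rab5c held 65.2% ± 9.27 in HFW, 24.7% ± 14.2 in HF, 68.3% ± 21.6 in NW and 25.0% ± 10.9 in N (SD, n = 4 each). The sum of both genes was 232 ± 62.8 CPM in HFW and 182 ± 51.6 CPM in HF, and 179.6 ± 43.2 CPM in NW and 187 ± 65.2 CPM in N.

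**Figure D4:**
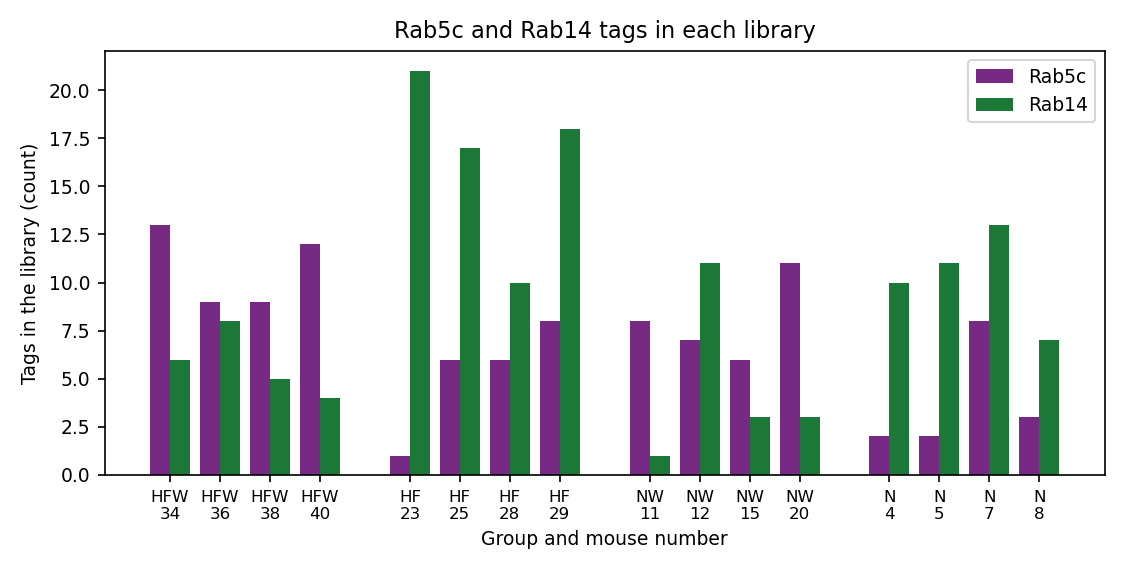
Raw tags (vertical axis, count) of Rab5c and Rab14 in each library, ordered by group and mouse number (horizontal axis). Rab5c has the taller bar in all 4 HFW mice and in 3 of 4 NW mice, and Rab14 in all 4 HF mice and all 4 N mice.

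The second question was what the high-fat diet changed, without and with the extract. Rab5c averaged 41.3 CPM in HF against 51.1 CPM in N, with a log2 difference of -0.22 (SE 0.59, adjusted p = 0.918). Rab14 averaged 140.5 CPM in HF against 136 CPM in N, with a log2 difference of 0.03 (SE 0.41, adjusted p = 0.979), and for Rab9 the log2 difference was -0.54 (SE 0.43, adjusted p = 0.682). None passed by edgeR's quasi-likelihood test, where 0.0956% of all genes did (0.00983% with no filter). The signs of Rab5c and Rab14 in HF minus N depend on the mice used, as given with the alternatives. With the extract, in HFW minus NW, the log2 differences were 0.29 (SE 0.47) for Rab5c, 0.38 (SE 0.53) for Rab14 and 0.82 (SE 0.57) for Rab9. None passed by edgeR (adjusted p between 0.528 and 0.833), nor did any of the genes tested (0.00%), of which 126 had an unadjusted p under 0.05. The interaction of WEPAK with diet did not pass for Rab5c (0.51, SE 0.76) or Rab14 (0.35, SE 0.67), with an adjusted p of 0.997 for both by edgeR.

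The 26 genes of the pool held 2 to 34 tags a library. Rab36 with 74 tags and Rab17, a Rab of epithelial transcytosis, with 39 tags held the most, followed by Rab8a (25), Rab43 (20) and Rab35 (17), which returns cargo from endosomes to the surface. The other 21 genes had 10 tags or fewer each over all libraries, 14 of them 2 or fewer. Pooled, they reached 174, 262, 261 and 254 CPM in HFW mice 34, 36, 38 and 40, against 105, 213, 205 and 203 CPM in HF mice 23, 25, 28 and 29. They reached 68.2, 119, 37.5 and 174 CPM in NW mice 11, 12, 15 and 20, against 134, 229, 106 and 282 CPM in N mice 4, 5, 7 and 8. The pool was thus lowest in NW, at a mean of 99.6 ± 59.8 CPM, against 188 ± 82.2 CPM in N (SD, n = 4 each), and each pair of groups within a diet overlapped. HFW and NW did not overlap, with means of 238 ± 42.6 CPM in HFW and 99.6 ± 59.8 CPM in NW (SD, n = 4 each). Without Rab36 and Rab17 the pool of the other genes did overlap, with 115 ± 45.0 CPM in HFW and 65.1 ± 24.7 CPM in NW (SD, n = 4 each).

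Rab17 had 2, 6, 2 and 3 tags in the HFW mice and 0, 1, 0 and 1 tag in the NW mice, each in order of mouse number. In the fit with no filter its log2 difference in HFW minus NW was 2.42 (SE 0.98), with an adjusted p of 0.683 by edgeR. For Rab36 it was 1.47 (SE 0.66), also with an adjusted p of 0.683. Of 30 Rab genes 4 had an unadjusted p under 0.05 in that comparison, beside 4.16% of all 10171 genes, and 0 passed after adjustment.

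Summed over all members, Rab tags made up 615, 734, 801 and 574 CPM in HFW mice 34, 36, 38 and 40, against 537, 538, 524 and 517 CPM in HF mice 23, 25, 28 and 29. They made up 375, 391, 281 and 574 CPM in NW mice 11, 12, 15 and 20, against 461, 668, 609 and 565 CPM in N mice 4, 5, 7 and 8. Every HFW mouse lay above every HF mouse, whereas 3 of 4 NW mice lay below every N mouse. The means were 681 ± 105 CPM in HFW, 529 ± 10.1 CPM in HF, 405 ± 122 CPM in NW and 576 ± 87.1 CPM in N (SD, n = 4 each). The HF mice lay closer together than counting error alone gives, with a coefficient of variation of 1.91% against 12.6%. Rab5c alone averaged 147 CPM in HFW and 41.3 CPM in HF. The sum is a description over genes that moved in opposite directions, and no test was made of it.

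**Figure D5:**
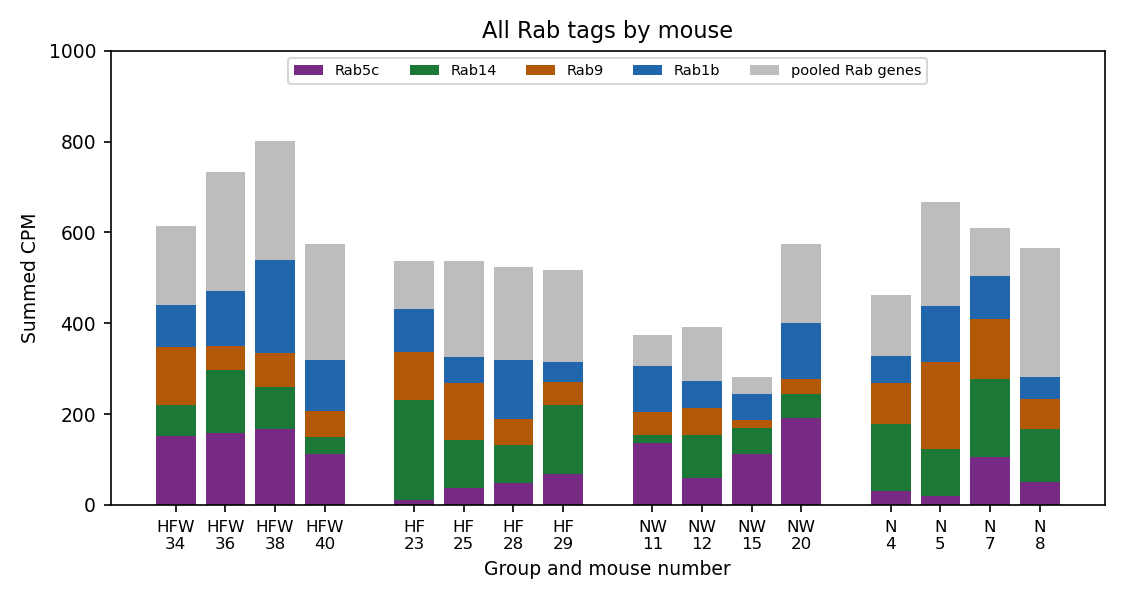
Summed CPM of all Rab genes (vertical axis) in each mouse (horizontal axis, by group), stacked by Rab5c, Rab14, Rab9, Rab1b and the pool of the other genes. HFW bars reach 574 to 801 CPM and HF bars 517 to 538 CPM, and NW bars reach 281 to 574 CPM and N bars 461 to 668 CPM.

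The depth behind these values was small. With group totals of 43 Rab5c tags in HFW, 21 in HF, 32 in NW and 15 in N, counting error alone gives a single library a coefficient of variation between 31.1% and 51.5%. The variance between mice within groups was 1.60 times that of counting (chi-square per degree of freedom) for Rab5c, 1.68 for Rab14, 1.42 for Rab9 and 1.41 for Rab1b. The biological coefficient of variation estimated by edgeR was 0.284 for Rab5c, 0.280 for Rab14 and 0.285 for Rab9, beside a median of 0.263 over all genes tested.

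The genes that switch Rabs on and off and that carry out their orders were read from lists chosen with earlier results of these data known. Of 83 listed Rab regulators 70 had a tag and 9 were tested. In the mean WEPAK effect 1 of the 9 rose and 0 fell, beside 15.2% of all genes higher and 16.1% lower, with a median log2 fold change of -0.02 against 0.03 over all genes. The riser was Rab3gap2, the non-catalytic subunit of a complex that acts on Rab3 and Rab18 (log2 fold change 0.67, SE 0.24, adjusted p = 0.0309 by edgeR). It had 438 ± 146 CPM in HFW and 217 ± 92.4 CPM in HF, and 333 ± 75.6 CPM in NW and 261 ± 102 CPM in N (SD, n = 4 each). Rab3gap2 failed to pass in 8 of 25 alternatives, over which the adjusted p lay between 0.00771 and 0.360 by edgeR or the other tools. These were no filter, thinned libraries, and leaving out HFW mouse 38, HF mouse 23, HF mouse 25, NW mouse 20, N mouse 5 or N mouse 7. In HFW minus HF it also rose (0.99, adjusted p = 0.0490 by edgeR), and it did not pass there in 19 of 26 alternatives. Of 70 listed Rab effectors 54 had a tag and 4 were tested. In the mean WEPAK effect 0 passed by edgeR, 0 by the DESeq2 Wald test and 0 by limma-voom, and 1 had an unadjusted p under 0.05. The median was 0.30.

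The other lists of vesicle genes were read beside the same 15.2% of all genes called higher and 16.1% called lower in the mean WEPAK effect, and with so few members tested their counts are read as no more than that background. Among other small GTPases of traffic 4 of 32 listed were tested and 1 rose in the mean WEPAK effect, with a median of -0.08. It was Sar1a, the GTPase that starts COPII coats at the ER (0.91, SE 0.28, adjusted p = 0.0153 by edgeR), and it did not pass with no filter (adjusted p = 0.0881 by edgeR; 0.00143 to 0.0881 over its 25 alternatives). Among 50 listed SNAREs and their partners 3 were tested, with a median of -0.78, and 1 rose and 1 fell. Sec22c, a relative of the SNARE Sec22b at the ER, fell by 1.52 (SE 0.29, adjusted p = 0.000346 by edgeR), and it had 121 ± 24.5 CPM in HFW and 307 ± 35.9 CPM in HF, and 69.9 ± 41.6 CPM in NW and 238 ± 147 CPM in N (SD, n = 4 each). Napa, which recycles SNAREs after fusion, rose by 0.91 (SE 0.31, adjusted p = 0.0240 by edgeR). Napa did not pass without HFW mouse 40, NW mouse 12 or N mouse 4, nor with no filter or with thinned libraries, with an adjusted p between 0.0130 and 0.190 over its 25 alternatives. These genes passed the filter mainly through groups in which they were high, so their filtered calls are not support on their own. Sec22c had 254 to 331 CPM in HF mice and at most 104 CPM in NW mice. Napa had up to 262 CPM in NW mice and at most 110 CPM in HF mice. Sar1a had at least 280 CPM in HFW mice and as little as 81.3 CPM in HF mice.

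Of 56 listed coat genes 9 were tested, and 1 rose and 3 fell in the mean WEPAK effect, where 31.3% of all genes were called, with a median of -0.24. Those that fell were Copa, a subunit of the COPI coat (-1.0, SE 0.21, adjusted p = 0.000676), and the COPII subunits Sec24c (-1.01, SE 0.20, adjusted p = 0.000576) and Sec31a (-0.64, SE 0.23, adjusted p = 0.0350), all by edgeR. Sec24c had 1104 ± 242 CPM in HFW and 2605 ± 916 CPM in HF, and 901 ± 108 CPM in NW and 1541 ± 584 CPM in N (SD, n = 4 each). Ap2b1, a subunit of the clathrin adaptor at the cell surface, rose by 0.74 (SE 0.27, adjusted p = 0.0349 by edgeR). Sec31a failed to pass in 10 and Ap2b1 in 9 of 25 alternatives, while Sec22c, Copa and Sec24c passed in all 25. Copa and Sec24c lay above the filter's level of about 126 CPM in every mouse, with lowest values of 206 and 765 CPM. Sec22c did not, so most of its passes come from fits that it entered through groups in which it was high. Sec31a was lost without HFW mouse 36 or 40, HF mouse 25, NW mouse 11 or 15, or N mouse 4 or 7. Ap2b1 was lost without HFW mouse 38, HF mouse 23 or 29, NW mouse 20, or N mouse 4 or 5.

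The liver label and other cell types were checked with marker lists. All 6 hepatocyte markers had tags, and their summed level was 17240 to 20944 CPM in HFW and 11138 to 19426 CPM in HF, and 21365 to 36499 CPM in NW and 15130 to 27227 CPM in N. Of 9 Kupffer cell and macrophage markers found 6 had tags, with Cd68, Lyz2 and Ctss at 0, and their sum was 69.9 to 226 CPM in HFW and 84.8 to 313 CPM in HF, and 102 to 187 CPM in NW and 185 to 332 CPM in N. The 8 markers of sinusoidal endothelium summed to 298 to 419 CPM in HFW and 229 to 303 CPM in HF, and to 273 to 417 CPM in NW and 266 to 344 CPM in N. Of 8 stellate cell markers 7 had tags, with Rgs5 at 0, and their sum was 856 to 4084 CPM in HFW and 547 to 3988 CPM in HF, and 409 to 1067 CPM in NW and 548 to 1071 CPM in N. The lists for bile duct cells, neutrophils and platelets, and red cells had 19, 9 and 22 tags in all, with Krt19, Krt7, S100a8, S100a9, Hbb-b1 and Hbb-b2 at 0. The sums overlapped between HFW and HF and between NW and N for hepatocytes, macrophages, endothelium and stellate cells. In the mean WEPAK effect 5 of 5 tested hepatocyte markers had a positive log2 value, with a median of 0.34 against 0.03 over all genes. Of them 1 rose, Ttr, a secreted carrier of thyroid hormone (0.85, SE 0.26, adjusted p = 0.0141 by edgeR). The part of cell makeup in the values of Rab5c and Rab14 was not tested.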

How the data were processed

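Per the labels' protocols, cDNA was primed with biotinylated oligo-dT, digested with NlaIII, bound to beads and digested with EcoP15I to release tags, which were amplified by PCR. The authors deposited raw tag counts per RefSeq transcript, 1 column per mouse. How tags were matched is not given in the sources used here. No molecular identifiers are named, so PCR copies count as separate tags, and limits on counts cover counting error only. Rows without a symbol (417 of 26782, 0.0729% of tags) were left out, and 40 of 41 symbols that had become dates were restored from the RefSeq identifier. Rows were summed per symbol.

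The quasi-likelihood test was edgeR's (version 4.0.16, R 4.3.3), with TMM normalization and the tool's filter by group (minimum count 10; 1046 genes kept). All 16 libraries entered 1 robust fit, with a separate mean for each feeding group. The Benjamini-Hochberg adjustment ran over all genes tested, with a threshold of 0.05. SE is the log2 fold change over the square root of F and is approximate. CPM uses the normalized library size. As a check of the code, the fit was also run on counts simulated for the genes that passed the filter, in the mean WEPAK effect only. Its outcome is not used for any call given here. Alternatives were DESeq2 size factors, the DESeq2 1.42.0 Wald test, limma-voom (limma 3.58.1), other filters, a non-robust fit, the compared groups alone, RefSeq rows, thinned libraries, leaving out the 10 most abundant genes, and leaving out each mouse. The members, gene lists and tests were chosen with earlier results of these data known. Named genes were the Rab genes with 100 or more tags and, of each other list, up to 8 genes that passed in the mean WEPAK effect or between a pair of groups, smallest p first. The files name no genome build, so no coordinates are given. The result of 1 marker list is not reported here.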

Additional observations from a re-analysis of the deposited data

Results flagged for a closer look

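For each of the 4 abundant Rab genes, Rab36, the pool and the sum of all Rab genes, each group of 4 mice was checked for a mouse far from the other 3. In 28 such groups 2 were marked, and chance marks about 1 in 20. The pooled Rab genes had 174 CPM in HFW mouse 34, the lowest of its group, with the other HFW mice at 254 to 262 CPM. The pool had 105 CPM in HF mouse 23, the lowest of its group, with the other HF mice at 203 to 213 CPM. HF mouse 23 was also the mouse with the fewest Rab5c tags (1) and the most Rab14 tags (21).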

How the results depend on the processing

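The number of Rab genes past the threshold was 1 in HFW minus HF, and 0 with no filter or with at least 10 counts in each of 4 libraries, where Rab5c was not tested. It was 2 in the mean WEPAK effect, and 1 with no filter (Rab5c) and 1 with that other filter (Rab14). When each mouse was left out, it lay between 0 and 1 in HFW minus HF, 0 and 1 in NW minus N and 1 and 2 in the mean WEPAK effect, and was 0 throughout in HF minus N, HFW minus NW and the interaction. The mean WEPAK effect of Rab5c lay between 1.30 and 1.84 (adjusted p between 0.00110 and 0.0124) and passed in all 23 alternatives that tested it, and that of Rab14 lay between -1.23 and -0.79 (adjusted p between 0.0154 and 0.0762) and passed in 19 of 24. For Rab5c all of these except the fit with no filter kept the filter by group, which it passed through HFW and NW, in which it was high. Those passes are therefore not support on their own. With no filter its adjusted p was 0.0121 by edgeR. Signs that turned in the 3 tested genes, none of them with a call, were those of Rab14 in HF minus N with limma-voom (-0.062) and over the mice left out (-0.24 to 0.25), of Rab5c in HF minus N (-0.55 to 0.49), HFW minus NW (-0.026 to 0.54) and the interaction (-0.24 to 0.85), and of Rab14 in the interaction (-0.048 to 0.88). Rab1b, tested in 10 settings for these comparisons, also turned, at -0.19 to 0.13 in NW minus N and -0.21 to 0.094 in HF minus N. Over all genes the count moved by more than 1.5 times as follows. From 103 in HFW minus HF it was 59 without HFW mouse 38, 65 without HFW mouse 40, 52 without HF mouse 23 and 40 without HF mouse 25. From 115 in NW minus N it was 75 without NW mouse 11, 76 without NW mouse 12, 51 without NW mouse 15, 31 without N mouse 4 and 178 without N mouse 8. From 1 in HF minus N it was 31 without N mouse 4 and 0 to 2 otherwise, and from 0 in HFW minus NW it was 3 without NW mouse 20 and 3 with the compared groups alone. With no filter NW minus N had 70 calls, 12 higher and 58 lower, HFW minus HF had 106, 11 higher and 95 lower, and the mean WEPAK effect had 254, 65 higher and 189 lower, against 159 higher and 168 lower with the filter. With all libraries thinned to 56655 tags no Rab gene was tested, and with the compared groups alone none was in NW minus N or HFW minus NW. The causes were not tested. No paired analysis was possible because the mouse numbers all differ from group to group. Depth is a limit: 1 to 21 tags per mouse stand behind each of the abundant genes.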
